A study of Mus musculus with 6 samples.

Results

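The 10 chemokine genes Ccl2, Ccl5, Ccl7, Ccl8, Ccl11, Cxcl1, Cxcl5, Cxcl10, Cxcl12 and Cx3cl1 were followed in brown preadipocytes and in the adipocytes derived from them, with and without a pretreatment with fibroblast growth factor 8 (FGF8). They were taken by symbol and are 10 of the 26264 genes listed in each of 6 bulk RNA-seq libraries. All 6 libraries came from an immortalized brown preadipocyte line from the stromal vascular fraction of wild-type Bl6N mice, immortalized according to the methods with the SV40 large T antigen. In all, 3 libraries had received FGF8 (5.5 nM) for 48 h and 3 were untreated controls, which the methods and the series design call vehicle-treated. One library of each kind was harvested directly after the pretreatment (day 0, preadipocytes), and the others on day 3 and day 9 after FGF8 had been withdrawn, of which the first 2 days were in adipogenic induction medium. Day 9 is called day 7 in the sample labels, whereas the other days have the same number in both. The growth protocol attached to the samples describes primary white preadipocytes and its treatment text lists several FGFs, whereas the titles and the series design describe immortalized brown cells and FGF8.

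Each of the 6 conditions had 1 library, so a difference between FGF8-pretreated and untreated cells of 1 day had no replicate check. Total counts were 16403254, 19468173 and 38551551 in the untreated libraries of days 0, 3 and 9, and 18083221, 38031701 and 34500934 in the FGF8 libraries. Levels below are normalized counts, that is counts divided by a size factor per library. Log2 fold changes compare FGF8-pretreated with untreated cells harvested on the same day, on the scale log2(normalized count + 1), and negative values mean lower after FGF8. The 95% interval given with them is an exact Clopper-Pearson interval for both counts' ratio and covers counting error only. Fold ratios, intervals and differences between days were taken from normalized counts without the added 1, so for genes with few counts they depart slightly from the printed log2 fold changes. The labelled cell type was checked against markers. Of the preadipocyte markers, Pdgfra stood at 68261 and Ly6a at 28641 normalized counts in untreated cells of day 0, and the adipocyte gene Adipoq was at 1.47 normalized counts in untreated cells of day 0, 21274 at day 3 and 18265 at day 9. Of the leukocyte genes, Ptprc, Adgre1, C1qa, C1qb and C1qc had at most 1 count in any library, whereas Cd68 reached 141, Cd14 128, Fcer1g 64, Csf1r 61 and Lck 266 counts.

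Chemokines are small secreted proteins that direct the migration of leukocytes along concentration gradients by activating G protein-coupled receptors on their surface. The CC, CXC and CX3C families are named after the spacing of the conserved cysteines near the amino terminus. In adipose tissue they are produced by preadipocytes and other stromal cells as well as by immune cells, and many of them are transcribed in response to inflammatory cytokines through NF-kB or to interferons through STAT factors. Among the genes, 5 are CC chemokines, 4 are CXC chemokines and Cx3cl1 is the only CX3C member.

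The promoter windows of 5 of the genes are printed, the 4 that held an NF-kB match and that of Ccl2, which held none. The window of Cxcl12, which was at least 2-fold lower on all 3 days, also held none and is not printed. Each window holds the 250 bases before the start of the canonical transcript (GENCODE M39) in GRCm39, read 5′ to 3′ on the strand of the gene. Capitals mark matches to the NF-kB consensus on either strand and, in Cxcl10, to the interferon-stimulated response element GAAANNGAAA. The windows are chr5:92496749-92496998 (minus strand) for Cxcl10, chr5:91038844-91039093 (plus) for Cxcl1, chr5:90906987-90907236 (plus) for Cxcl5, chr11:83421346-83421595 (minus) for Ccl5 and chr11:81926147-81926396 (plus) for Ccl2.
Cxcl10: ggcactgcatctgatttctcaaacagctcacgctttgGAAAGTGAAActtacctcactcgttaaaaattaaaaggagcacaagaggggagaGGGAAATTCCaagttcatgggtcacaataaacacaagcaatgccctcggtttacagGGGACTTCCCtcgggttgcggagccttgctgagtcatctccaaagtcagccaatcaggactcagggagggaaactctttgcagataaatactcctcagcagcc
Cxcl1: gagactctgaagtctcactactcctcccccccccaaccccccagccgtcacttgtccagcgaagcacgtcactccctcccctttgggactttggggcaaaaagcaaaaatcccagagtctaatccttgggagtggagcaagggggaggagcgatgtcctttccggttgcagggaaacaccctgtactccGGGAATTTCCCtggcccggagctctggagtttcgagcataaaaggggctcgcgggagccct
Cxcl5: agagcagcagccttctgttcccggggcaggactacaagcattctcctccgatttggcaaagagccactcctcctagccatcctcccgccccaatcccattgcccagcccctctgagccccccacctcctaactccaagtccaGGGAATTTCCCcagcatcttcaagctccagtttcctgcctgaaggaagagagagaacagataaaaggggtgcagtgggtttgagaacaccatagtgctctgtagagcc
Ccl5: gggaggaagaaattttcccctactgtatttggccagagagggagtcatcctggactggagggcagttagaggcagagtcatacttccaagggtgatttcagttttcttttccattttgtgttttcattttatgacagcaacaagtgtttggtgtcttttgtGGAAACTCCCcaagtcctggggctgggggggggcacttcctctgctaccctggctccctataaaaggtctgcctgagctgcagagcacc
Ccl2: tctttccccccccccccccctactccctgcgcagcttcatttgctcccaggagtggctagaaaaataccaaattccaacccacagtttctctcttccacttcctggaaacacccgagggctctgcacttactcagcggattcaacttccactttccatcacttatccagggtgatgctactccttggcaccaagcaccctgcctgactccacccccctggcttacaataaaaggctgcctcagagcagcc

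Cxcl10 is classically induced by interferon and encodes a ligand of CXCR3, a chemokine receptor on T cells. Its window held 2 NF-kB matches, from 159 to 150 and from 103 to 94 bases upstream of the start. It also held the interferon-stimulated response element at 213 to 204 bases upstream. In Cxcl1 and Cxcl5, 2 matches on opposite strands overlap in 1 palindrome-like run, which begins 61 bases upstream in Cxcl1 and 108 bases upstream in Cxcl5. The single match of Ccl5 lies on the opposite strand at 89 to 80 bases upstream. No NF-kB match was found in the windows of Ccl2, Ccl7, Ccl8, Ccl11, Cxcl12 and Cx3cl1. Over 21770 protein-coding promoters of the same length, 921 (4.23%) held an NF-kB match and 723 (3.32%) the interferon-stimulated response element, against 4 and 1 of the 10 chemokine promoters. The STAT motif TTCNNNGAA was found in 2 of the 10 (Ccl2 from 151 to 143 and Ccl11 from 202 to 194 bases upstream) and in 7.7% of all promoters, and the AP-1 motif TGANTCA in 2 of the 10 (Ccl7 and Cxcl10) and in 6.17%. These are matches of letters and not measured binding, and a window without a match says only that these letters are not in it.

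In preadipocytes at the end of the FGF8 pretreatment, 5 of the 10 genes, Ccl5, Cxcl1, Cxcl5, Cxcl10 and Cxcl12, were at least 2-fold lower than in untreated cells, and none was 2-fold higher. At day 3 and again at day 9, every gene except Cxcl10 was at least 2-fold lower, 9 of 10 on each day, and again none was 2-fold higher. The share of all genes that met the same limit, counted where the 2 libraries averaged 20 normalized counts or more, was 10.8% at day 0, then 12.1% at day 3 and 8.74% at day 9. The median log2 fold change of the 10 genes was -1.26 at day 0, then -2.09 at day 3 and -2.30 at day 9, against 0.05, 0.08 and 0.08 over all genes. Because whole cultures were sequenced, fewer cells of a type and less RNA per cell cannot be told apart. All 10 genes were past the minimum mean on every day.

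**Figure D1:**
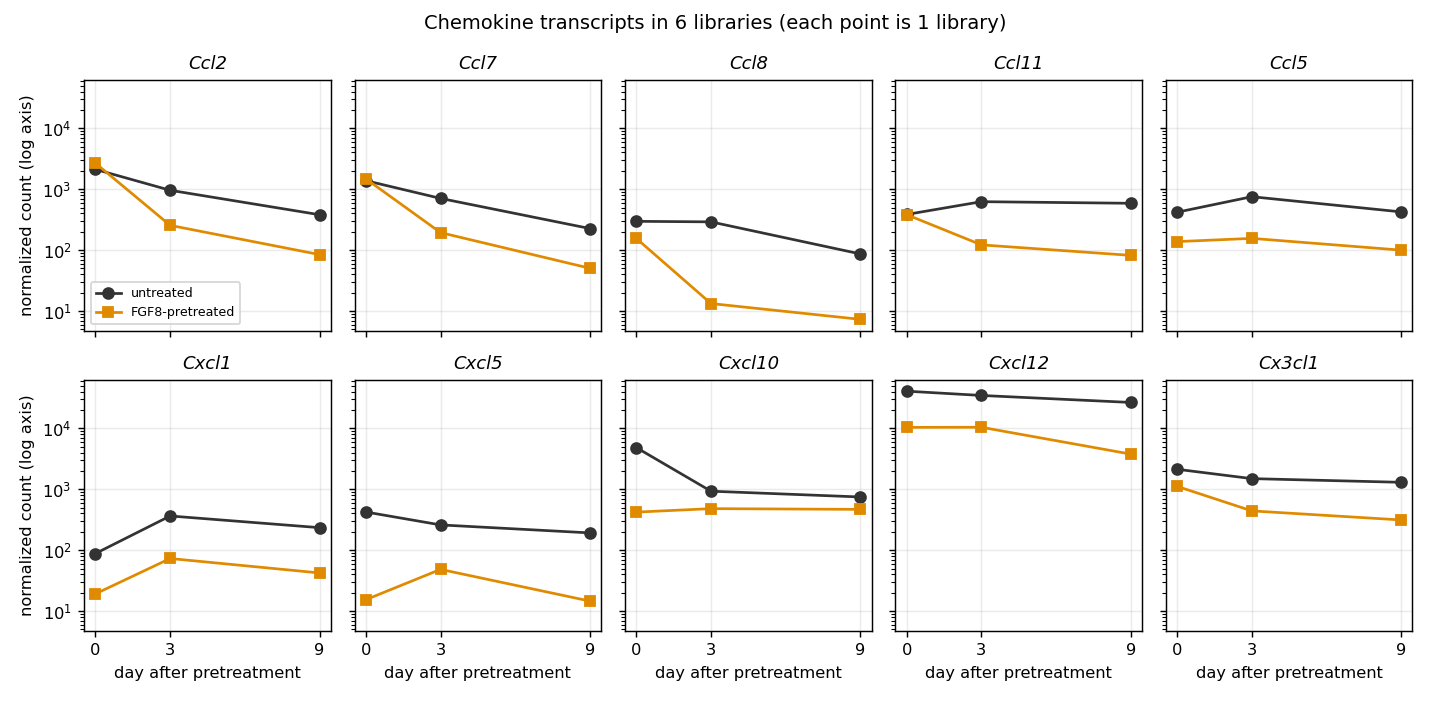
Normalized counts (log axis) of the 10 chemokine genes against the day after pretreatment (0, 3 and 9), with 1 point per library, circles for untreated and squares for FGF8-pretreated cells. Ccl2, Ccl7 and Ccl11 start at nearly the same level in both and separate at day 3, whereas Cxcl10 is apart at day 0 (4824 against 421) and close at day 9 (746 against 467).

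The genes showed 3 patterns. Ccl5, Cxcl1, Cxcl5 and Cxcl12 passed the 2-fold limit downward on each of the 3 days, as did 3.49% of the 11813 genes measured on every day. Ccl2, Ccl7, Ccl8, Ccl11 and Cx3cl1 lay within 2-fold at day 0 but passed the 2-fold limit downward on both later days, as did 2.91% of those genes. Cxcl10 had the opposite course, lower at day 0 and within 2-fold later, as had 4.38%. These patterns depend on the 2-fold limit. Ccl8 (1.9-fold) and Cx3cl1 (1.91-fold) were already lower at day 0, though within the limit. Cxcl10 was still lower at day 3 (1.93-fold) and at day 9 (1.6-fold). Lower by 2-fold at both day 3 and day 9 were 9 of the 10 genes and 6.72% of 12619 genes.

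Neighbouring genes make up 4 of the 5 with the late pattern. Ccl2, Ccl7, Ccl11 and Ccl8 lie within 81.2 kb on chromosome 11, at chr11:81926397-81928279, chr11:81936532-81938351, chr11:81948618-81953781 and chr11:82006007-82007625, and all are on the plus strand. Their products attract monocytes through the receptor CCR2 (Ccl2 and Ccl7) and eosinophils and other cells through CCR3 (Ccl11, eotaxin), and Ccl8 is a related monocyte chemoattractant protein. Ccl12, which lies between Ccl11 and Ccl8, had 0 counts in all 6 libraries.

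Ccl2 stood at 2115, 959.6 and 381 normalized counts in untreated cells of days 0, 3 and 9, and at 2674, 255 and 84.5 in FGF8-pretreated cells. It was the highest of all libraries in FGF8 cells of day 0 and lower than in untreated cells on both later days. Its log2 fold change was 0.34 (95% interval 0.24 to 0.44) at day 0, -1.91 (-2.10 to -1.73) at day 3 and -2.16 (-2.49 to -1.87) at day 9. Ccl2 was thus 1.26-fold higher in FGF8 cells at day 0 and 3.77-fold and 4.51-fold lower afterwards.

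Ccl7 stood at 1381, 706 and 226 normalized counts in untreated and at 1481, 194 and 50.4 in FGF8-pretreated cells. At day 0 the 2 libraries differed by less than counting error, with a log2 fold change of 0.10 (-0.02 to 0.23). The ratio was 3.65-fold at day 3 and 4.48-fold at day 9, both lower after FGF8 and close to the ratios of its neighbour Ccl2.

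Ccl11 had 385, 624 and 587 normalized counts in untreated cells and 382, 122 and 82.1 in FGF8-pretreated cells. Unlike Ccl2 and Ccl7 it was higher in untreated cells of days 3 and 9 than in those of day 0, and lower in FGF8-pretreated cells of those days. Its log2 fold change was -0.01 (-0.26 to 0.23) at day 0, -2.34 (-2.61 to -2.10) at day 3 and -2.82 (-3.15 to -2.54) at day 9.

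Ccl8 had 297, 291 and 86.6 normalized counts in untreated and 156, 13.3 and 7.32 in FGF8-pretreated cells. The 2 later FGF8 libraries held only 19 and 9 counts of it. Its ratio was 1.9-fold at day 0, 21.9-fold at day 3, with a log2 fold change of -4.35 (-5.21 to -3.77), and 11.8-fold at day 9, with -3.40 (-4.73 to -2.59).

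Without the added 1, the log2 fold change at day 3 minus that at day 0 was -2.25 (counting interval -2.46 to -2.05) for Ccl2, -1.97 (-2.21 to -1.73) for Ccl7, -2.34 (-2.69 to -1.99) for Ccl11 and -3.52 (-4.27 to -2.78) for Ccl8. Between day 9 and day 0 the same difference was -2.51 for Ccl2, -2.26 for Ccl7, -2.83 for Ccl11 and -2.64 for Ccl8. These differences exceeded counting error in all 4 genes, but each rests on 1 library per condition. The median of the 4 log2 fold changes was 0.04 at day 0, then -2.13 at day 3 and -2.49 at day 9.

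Cx3cl1 encodes fractalkine, a chemokine made as a membrane-bound protein that can be shed and binds the receptor CX3CR1. It lies at chr8:95498637-95509055 and had 2124, 1492 and 1298 normalized counts in untreated cells and 1114, 441 and 313 in FGF8-pretreated cells. It was lower after FGF8 on each day, by 1.91-fold at day 0, 3.38-fold at day 3 and 4.15-fold at day 9. The log2 fold changes were -0.93 (-1.05 to -0.81), -1.76 (-1.90 to -1.62) and -2.05 (-2.21 to -1.89), so the value at day 0 was just inside the 2-fold limit.

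Ccl5 (RANTES), which recruits T cells and monocytes, is also on chromosome 11, at chr11:83416602-83425942 on the minus strand and 1409 kb from Ccl8. It had 419, 753 and 424 normalized counts in untreated and 138, 156 and 100 in FGF8-pretreated cells. No FGF8 library reached the lowest untreated library. The ratio was 3.03-fold at day 0, then 4.84-fold at day 3 and 4.25-fold at day 9, and the log2 fold changes were -1.59 (-1.93 to -1.27), -2.27 (-2.50 to -2.05) and -2.07 (-2.38 to -1.80).

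**Figure D2:**
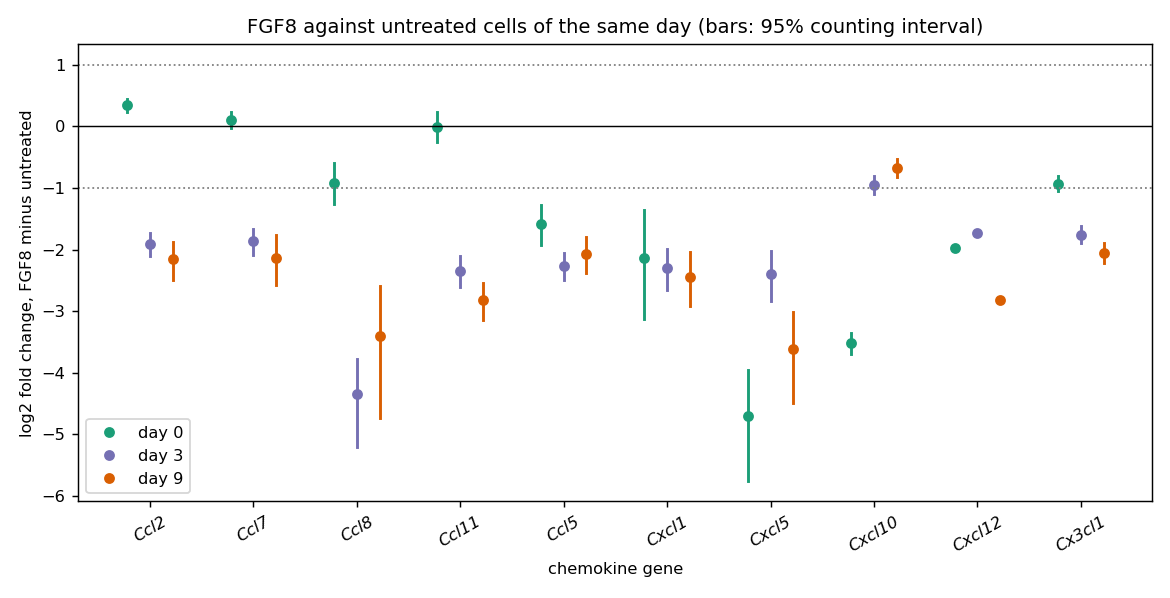
Log2 fold change (FGF8 minus untreated cells of the same day) of each chemokine gene at days 0, 3 and 9, with bars for the 95% counting interval and dotted lines at 2-fold. At day 0 Ccl2, Ccl7 and Ccl11 lie near 0 and Cxcl5 and Cxcl10 lowest, while at days 3 and 9 every point is below 0.

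Cxcl1 and Cxcl5 are ligands of the neutrophil receptor CXCR2 and lie 130 kb apart on chromosome 5, at chr5:91039094-91040974 and chr5:90907186-90909483. Cxcl1 had 88.1, 364 and 234 normalized counts in untreated and 19.2, 73 and 42.3 in FGF8-pretreated cells. Both arms held more of it at day 3 than at day 0, and the 2 arms kept a similar distance. The log2 fold change was -2.14 (-3.12 to -1.36) at day 0, -2.30 (-2.66 to -1.99) at day 3 and -2.44 (-2.92 to -2.04) at day 9. Between day 0 and day 3 the log2 ratio without the added 1 differed by -0.12, which was within counting error.

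Cxcl5 had 423, 259.6 and 192 normalized counts in untreated and 15.4, 48.4 and 14.6 in FGF8-pretreated cells. All 3 FGF8 libraries were far below the lowest untreated library. The ratio was 27.5-fold at day 0, with a log2 fold change of -4.70 (-5.75 to -3.96), then 5.36-fold at day 3 with -2.40 (-2.84 to -2.02) and 13.1-fold at day 9 with -3.62 (-4.49 to -3.02). The FGF8 libraries of days 0 and 9 held 12 and 18 counts of Cxcl5. The log2 ratio without the added 1 was higher by 2.36 (1.44 to 3.28) at day 3 than at day 0.

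Cxcl10 lies at chr5:92494497-92496748 on the minus strand, 1454 kb from Cxcl1. It had 4824, 928 and 746 normalized counts in untreated cells and 421, 480.1 and 467 in FGF8-pretreated cells. The untreated library of day 0 stood apart from the other 5, and the 3 FGF8 libraries were nearly level. The ratio was 11.5-fold at day 0, then 1.93-fold at day 3 and 1.6-fold at day 9, and the log2 fold changes were -3.51 (-3.69 to -3.35), -0.95 (-1.10 to -0.80) and -0.67 (-0.82 to -0.53). Against day 0, the log2 ratio without the added 1 was higher by 2.57 (2.34 to 2.79) at day 3 and by 2.84 (2.62 to 3.06) at day 9. Cxcl10 lies inside the gene Art3 on the opposite strand, which held at most 426 counts and had log2 fold changes of -3.27, -0.38 and -1.03. The strand setting of the counting is not given in the sources used here, so reads of the 2 genes may not have been told apart.

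Cxcl12, also called stromal cell-derived factor, signals through CXCR4 and is known for retaining haematopoietic cells in the bone marrow stroma. It lies at chr6:117144945-117158328 and was by far the most abundant of the 10 genes in counts. It had 40599, 34530.3 and 26516 normalized counts in untreated cells and 10351, 10387 and 3765 in FGF8-pretreated cells. Every FGF8 library was below every untreated library. The ratio was 3.92-fold at day 0, then 3.32-fold at day 3 and 7.04-fold at day 9, and the log2 fold changes were -1.97 (-2.01 to -1.94), -1.73 (-1.76 to -1.70) and -2.82 (-2.86 to -2.77). The counts of Cxcl12 made 61.8% to 86.4% of the summed normalized counts of the 10 genes.

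Summed over the 10 genes, untreated cells had 52654, 40908 and 30690.3 normalized counts at days 0, 3 and 9, and FGF8-pretreated cells had 16752, 12169 and 4926. Without Cxcl12 the sums were 12055, 6378 and 4175 in untreated and 6401, 1782 and 1162 in FGF8-pretreated cells. Both sums were lower in FGF8 cells on each day and lower at each later day within both arms.

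The order of the genes by level was compared per kilobase of annotated exon. In untreated cells of day 0, Cxcl12 led with 4865 normalized counts per kb, followed by Cxcl10 (2142), Ccl2 (1859) and Ccl7 (1711), the last pair with overlapping counting intervals. The intervals of Ccl8 (576) and Cx3cl1 (535) overlapped too, as did those of Ccl5 (408) and Ccl11 (346), and Cxcl5 (223) and Cxcl1 (46.9) were lowest. Overlap of 2 intervals is not a test of the difference. In FGF8-pretreated cells of day 0, Ccl2 (2350.1 per kb) and Ccl7 (1835) stood above Cxcl12 (1240.2), and Cxcl10 (187) came after Ccl11, Ccl8 and Cx3cl1. By day 9 Cxcl12 led again in both arms, with 3177 per kb in untreated and 451 in FGF8-pretreated cells. The exons of all isoforms of Cxcl12 were joined for its length, which lowers its value per kb where short isoforms predominate.

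The effect shared by the 3 days was tested across all genes with the quasi-likelihood test of edgeR, with day as a block. The 3 days served as the only replicates, so a response that differed between days counts as error in this test, and there were 2 residual degrees of freedom. Of the 10 genes, 3 passed as lower (Ccl5, Cxcl1 and Cxcl12), against 1.25% of 14569 genes tested. None passed as higher, and at an unadjusted p under 0.05 edgeR had 9 lower and 0 higher and DESeq2 10 lower and 0 higher. In edgeR the shared log2 fold change was -2.01 ± 0.22 (SE) for Ccl5 (adjusted p = 0.0451), -2.35 ± 0.25 for Cxcl1 (adjusted p = 0.0448) and -2.19 ± 0.27 for Cxcl12 (adjusted p = 0.0469), each lower on 3 of 3 days. Over the alternatives, the adjusted p ranged from 1.16e-10 to 0.732 for Ccl5, from 7.58e-10 to 1 for Cxcl1 and from 8.81e-13 to 0.896 for Cxcl12.

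Cxcl5 had the largest shared difference of the 10 genes, -3.57 ± 0.52, but did not pass (edgeR adjusted p = 0.0611), and neither did Cx3cl1 with -1.60 ± 0.25 (adjusted p = 0.0657). The other 5 genes, whose values at day 0 lay apart from those at days 3 and 9, had edgeR adjusted p-values from 0.141 (Ccl8) to 0.248 (Ccl2). Ccl2 and Ccl7 were lower on 2 of 3 days and Ccl8 and Cxcl10 on 3 of 3, while Ccl11 was lower on days 3 and 9 and at -0.01 at day 0. Without day 0, all 10 genes passed as lower in edgeR, against 11.6% of 14367 genes, with log2 fold changes from -0.84 for Cxcl10 (adjusted p = 0.0179) to -4.12 for Ccl8 (adjusted p = 0.00105). Without day 3 or without day 9, 0 of the 10 passed, with 5 and 6 lower at an unadjusted p under 0.05. The test without day 0 was run as an alternative and rests on 4 libraries with 1 residual degree of freedom.

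Changes along differentiation were tested in the same fit with treatment as a block. Between day 0 and day 3, Ccl2 fell by 2.36 on the log2 scale (edgeR, SE 0.68, adjusted p = 0.0412) and Ccl7 fell by 2.01 (SE 0.60, adjusted p = 0.0455), whereas Cxcl1 rose by 2.06 (SE 0.31, adjusted p = 0.00853). Of all genes tested, 19.8% passed as lower and 26.2% as higher. Between day 0 and day 9, Ccl2 fell by 3.81 (edgeR adjusted p = 0.0116), Ccl7 fell by 3.78 (adjusted p = 0.00891), Ccl8 fell by 3.21 (adjusted p = 0.0408) and Cx3cl1 fell by 1.24 (adjusted p = 0.0228), and Cxcl1 rose by 1.32 (adjusted p = 0.0199). Of all genes, 24.8% passed as lower and 29.2% as higher, beside 4 and 1 of the 10 chemokine genes. The other genes did not pass, although Cxcl10 was 5.2-fold lower in untreated cells of day 3 than of day 0 and 1.14-fold higher in FGF8-pretreated cells.

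Within single arms the courses differed. In untreated cells Ccl2 was 5.55-fold and Ccl7 6.12-fold lower at day 9 than at day 0, and in FGF8-pretreated cells 31.6-fold and 29.4-fold lower. Ccl11 was 1.53-fold higher at day 9 than at day 0 in untreated cells and 4.65-fold lower in FGF8-pretreated cells. Cxcl12 was 1.53-fold lower in untreated and 2.75-fold lower in FGF8-pretreated cells, all of the latter after day 3. Ccl5 was level between day 0 and day 9 in untreated cells, with a log2 change of 0.02 (-0.19 to 0.23).

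**Figure D3:**
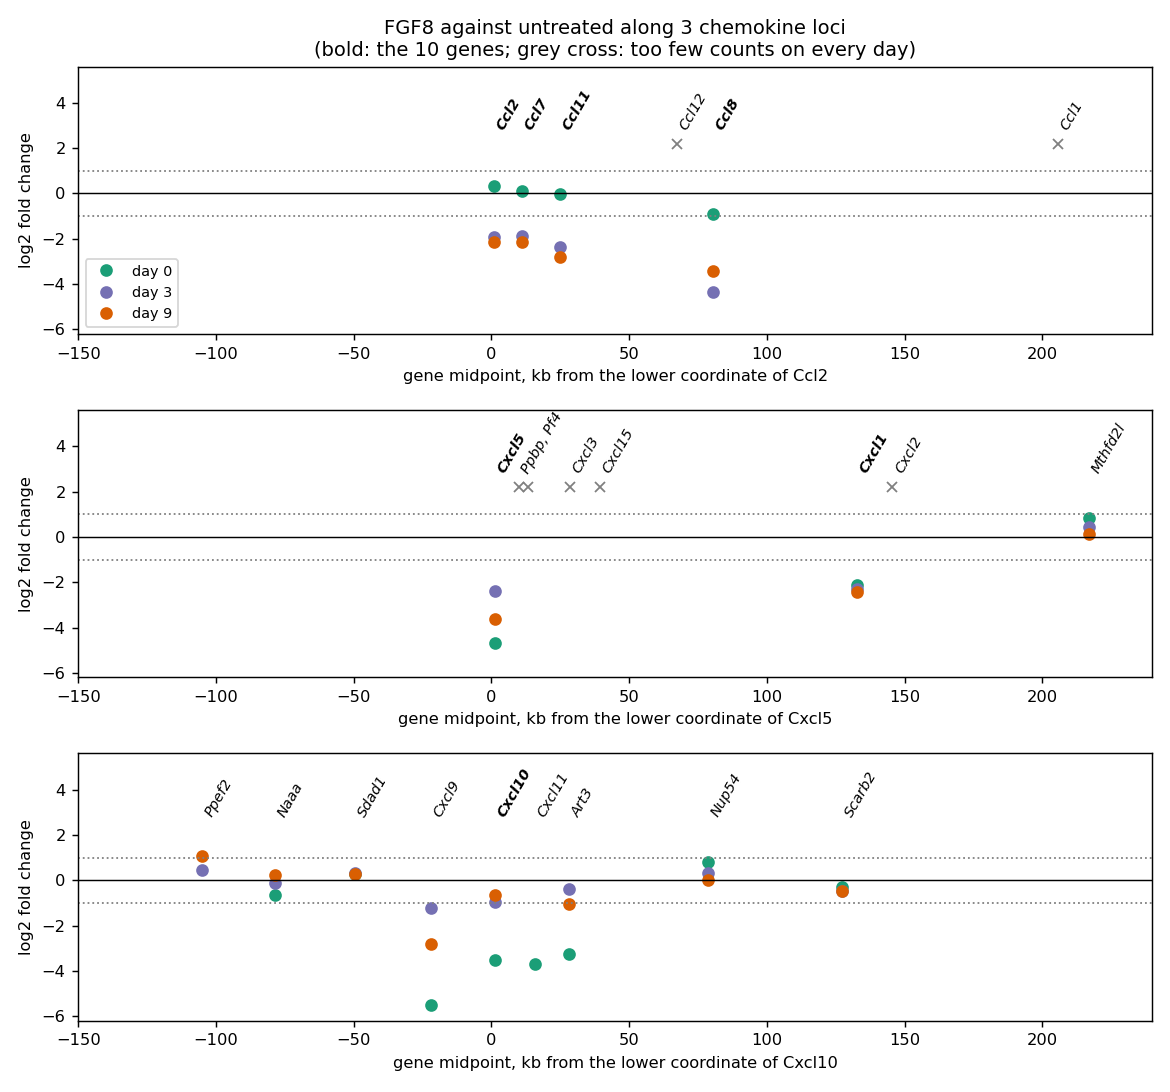
Log2 fold change (FGF8 minus untreated, days 0, 3 and 9) of the genes in 3 chemokine regions against the distance of the gene midpoint in kb from Ccl2, Cxcl5 or Cxcl10, with the chemokine genes of the report in bold and crosses for genes with too few counts. In the Cxcl10 region Cxcl9, Cxcl10, Cxcl11 and Art3 lie lowest at day 0, whereas Sdad1, Nup54 and Scarb2 beside them lie within 2-fold on every day.

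Around Cxcl10, the adjacent interferon-induced ligands of the same receptor were also lower at day 0. Cxcl9 stood at 1216, 2726 and 2130.2 normalized counts in untreated and 25.6, 1172 and 300 in FGF8-pretreated cells, with log2 fold changes of -5.52, -1.22 and -2.82. It was lowest in FGF8 cells of day 0 and 2.33-fold lower than in untreated cells at day 3. For Cxcl11 the log2 fold change was -3.68 at day 0, with too few counts later. The next genes, Sdad1 (0.28, 0.31 and 0.27) and Nup54 (0.81, 0.34 and 0.01), had values above 0. Between Cxcl5 and Cxcl1, the chemokine genes Ppbp, Pf4, Cxcl3 and Cxcl15 had at most 4 counts in any library, and Cxcl2, just beyond Cxcl1, had at most 13.

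The pattern of Ccl2 over the 6 libraries was most like those of Eml1 (Pearson r = 0.997), Efhd2 (0.997) and Sytl5 (0.996) among the 11381 genes averaging 100 normalized counts or more, given as a description. For Cxcl1 the most similar genes were Eva1b (0.993), H6pd (0.989) and Fam171a2 (0.987), and for Cxcl10 they were Psmb10 (0.996), an interferon-inducible proteasome subunit, Shox2 (0.995) and Il18bp (0.994), which encodes a binding protein of interleukin-18. For Cxcl12 they were Rpp25 (0.995), Fbln1 (0.990) and Htra1 (0.984). Ccl7 had r = 0.995 with Ccl2, whereas Cxcl1 had -0.060. All of these points share the same 6 libraries, 3 of each arm.

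Of the promoters of genes at least 2-fold lower at day 0, 6.7% of 1269 held an NF-kB match, and of genes within 2-fold at day 0 and lower later 6.61% of 333, against 4.41% of 11903 genes measured at day 0. Among the chemokine genes the matches were in 4 of the 5 that were lower at day 0 (Ccl5, Cxcl1, Cxcl5 and Cxcl10, printed above) and in 0 of the 5 with the late pattern. With so few genes this is a description. The interferon-stimulated response element was in 6.7% of the promoters of genes lower at day 0 and in 3.11% of those measured. For the AP-1 motif these shares were 7.33% and 4.53%, and for the STAT motif 8.04% and 6.57%.

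The other 27 chemokine genes were mostly silent, 6 of them at 0 in all libraries and 17 with at most 10 counts in any. Of those measured, 4 of 7 were at least 2-fold lower at day 0, 3 of 6 at day 3 and 2 of 5 at day 9, with median log2 fold changes of -1.62, -0.88 and -0.77. Cxcl16, a transmembrane chemokine that binds CXCR6, had 1047, 1410.2 and 1376 normalized counts in untreated and 247, 631 and 432 in FGF8-pretreated cells, and passed as lower in edgeR with -1.65 ± 0.21 (adjusted p = 0.0499). Cxcl9 and Cxcl16 were 2-fold lower on all 3 days. Cxcl14 stood at 301, 8.91 and 27 normalized counts in untreated and at 1136, 2.11 and 4.06 in FGF8-pretreated cells, so it was higher after FGF8 at day 0 and, at low counts, lower at day 9. Ccl9 had log2 fold changes of -1.62, -0.59 and -0.77.

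Receptors were little expressed, with 16 of 23 genes at or below 10 counts and 0 of 7 tested passing in edgeR (3 lower at an unadjusted p under 0.05, and 2 passing in DESeq2). Ackr3, the scavenger receptor that removes Cxcl12, had 231, 396 and 704 normalized counts in untreated and 94.7, 131 and 401 in FGF8-pretreated cells. Ccrl2 was at 248 in untreated and 26.9 normalized counts in FGF8 cells of day 0, a log2 fold change of -3.16. Of the genes that cleave, shed or bind chemokines, 3 of 16 measured were at least 2-fold lower at day 0, 7 of 14 at day 3 and 6 of 14 at day 9, with medians of -0.31, -0.82 and -0.58. Mmp3, a matrix metalloproteinase, had log2 fold changes of -1.84, -4.94 and -6.33, and Mmp2, which can cleave Ccl7 and Cxcl12, had -0.96, -2.00 and -2.27. Adam10, a sheddase of Cx3cl1, had 0.06, -0.45 and -0.13. Of this group 0 of 15 tested passed in edgeR (8 lower at an unadjusted p under 0.05, and 7 passing in DESeq2).

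NF-kB pathway genes had median log2 fold changes of -0.29, -0.63 and -0.32 at days 0, 3 and 9, and 4, 5 and 3 of 24 were at least 2-fold lower. Nfkb1, the gene of a DNA-binding subunit, had -0.06, -0.25 and -0.15, while the receptor genes Tlr2 (-1.01, -2.08 and -2.54) and Il1r1 (-0.76, -1.25 and -1.30) were lower on each day. None of 24 tested passed in edgeR (11 lower at an unadjusted p under 0.05, and 8 passing in DESeq2). For genes of interferon signalling the medians were -0.66, -0.71 and -0.34, with 5, 5 and 3 of 16 at least 2-fold lower. Irf7, a transcription factor that amplifies interferon responses, had log2 fold changes of -2.71, -1.30 and -2.01. One gene of this list passed as lower in edgeR, Ifnar2 with -1.03 (adjusted p = 0.0499), which was named for this count after its value was seen.

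Other cytokines were mixed in direction at day 0, and unlike the chemokine genes they had a median above 0. Their median log2 fold change was 0.52 at day 0, then -1.12 at day 3 and -0.55 at day 9, with 4 of 11 at least 2-fold higher at day 0 and 2 lower. At day 3, 5 of 7 measured were at least 2-fold lower and 1 higher, and at day 9, 2 of 7 were lower and 0 higher. Il33, an alarmin cytokine, stood at 88.1, 389 and 617 normalized counts in untreated and at 6194, 47.7 and 26.8 in FGF8-pretreated cells. Csf1, the macrophage growth factor, was 1.44-fold higher at day 0 and 2.61-fold and 2.22-fold lower later, a course like that of Ccl2. In edgeR 0 of 11 tested passed (2 lower and 1 higher at an unadjusted p under 0.05, and the same numbers passing in DESeq2).

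**Figure D4:**
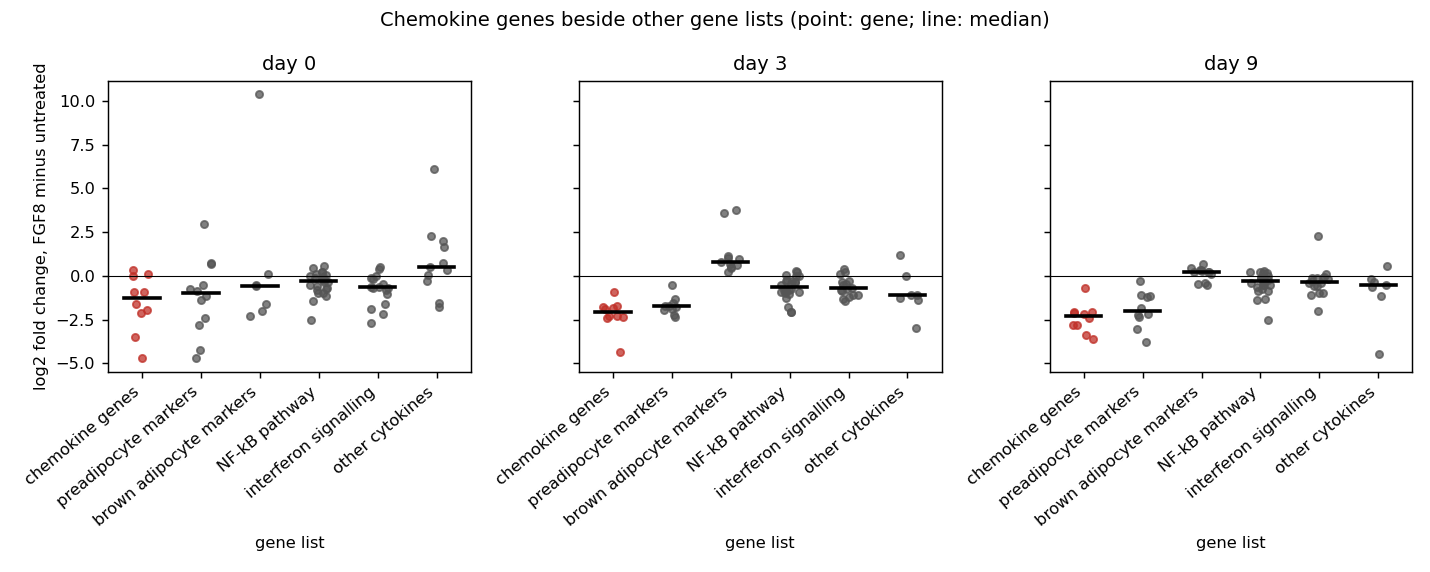
Log2 fold change (FGF8 minus untreated) at days 0, 3 and 9 of the chemokine genes and of the preadipocyte, brown adipocyte, NF-kB, interferon and other cytokine lists, with 1 point per gene that averaged 20 normalized counts or more in the 2 libraries and a line at the median. Among these 6 lists the chemokine genes and the preadipocyte markers have the lowest medians at all 3 times, -1.26 and -1.01 at day 0 and -2.30 and -2.00 at day 9.

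Most preadipocyte markers were also lower after FGF8 at days 3 and 9. Of the 12 markers, 1 of which (Dpp4) also cleaves chemokines, 6 of 12 measured reached the 2-fold limit downward at day 0, and 9 of 10 at day 3 and at day 9, while 1 (Pi16) was at least 2-fold higher at day 0, with medians of -1.01, -1.74 and -2.00. Their summed level was 453831, 605439.7 and 627940.3 normalized counts in untreated and 322508, 188024 and 166959.9 in FGF8-pretreated cells, and no marker was at 0 in all libraries. Most of each sum came from the matrix genes Col3a1, Col1a1 and Fn1 (338093, 163720.5 and 90882 in untreated cells of day 9). The sums therefore do not measure preadipocyte content. In untreated cells they rose from day 0 to day 9, whereas Dlk1 went from 9414 to 376. Pdgfra, the receptor that marks adipocyte progenitors, stood at 68261, 20193 and 13042 in untreated and 9679.8, 5840.1 and 3651 in FGF8-pretreated cells, and Ly6a had log2 fold changes of -4.24, -2.25 and -3.02. Pi16, at 69 in untreated and 542 normalized counts in FGF8 cells of day 0, Thy1 (log2 fold change 0.67) and Fn1 (0.72) were higher at day 0, and Thy1 (-1.88 and -2.24) and Fn1 (-1.95 and -2.17) were lower at days 3 and 9. In edgeR 3 of 11 passed as lower (Pdgfra, Pdgfrb and Dlk1). Brown adipocyte markers had medians of -0.59, 0.78 and 0.21, and their sums were 9195, 354104 and 604673 in untreated and 3917, 614175 and 698262 in FGF8-pretreated cells. At day 0, 3 of 7 brown adipocyte markers measured were at least 2-fold lower and 1 higher. At day 3, 4 of 11 were at least 2-fold higher and 0 lower, and at day 9, 0 of 12 were higher or lower. Ucp1, the uncoupling protein of brown fat, stood at 0, 319 and 91306 normalized counts in untreated and at 1328, 4287 and 99587 in FGF8-pretreated cells. The part of the preadipocyte and adipocyte genes in the chemokine result was not tested.

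Markers of other cell types were mostly at low counts, with Kdr as the main exception. Macrophage genes summed to between 259.8 and 316 normalized counts in untreated and between 185 and 194 in FGF8-pretreated cells, with 9 of 15 genes at or below 10 counts and 4, Adgre1, C1qa, C1qb and C1qc, at 0 throughout. Csf1r was lower on each day (log2 fold changes -2.93, -2.32 and -1.94) at 61 counts or fewer. Endothelial genes summed to 1914, 384 and 359.9 in untreated and 472, 214 and 190.2 in FGF8-pretreated cells, mostly from Kdr, Tek and Egfl7, and 6 of the 10, among them Cldn5 and Tie1, had at most 10 counts. Kdr stood at 1288, 132 and 27 normalized counts in untreated and at 7.68, 19.7 and 0.813 in FGF8-pretreated cells (log2 fold change -7.21 on day 0), and did not pass in edgeR (adjusted p = 0.102). Tek passed as lower in edgeR with -2.80 ± 0.28 (adjusted p = 0.0429). Egfl7 (0.51, 0.10 and -0.01) was not lower at day 0, and Pecam1 had 1 to 17 counts in all libraries. T and B lymphocyte genes had at most 10 counts except Lck, and their sums were 125, 16.5 and 28.4 in untreated and 346, 12.6 and 14.6 in FGF8-pretreated cells. The part of the endothelial genes in the chemokine result was not tested.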

How the data were processed

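The deposited values are raw counts per gene of 6 libraries, which the authors made from stranded mRNA libraries by trimming with Trim Galore, alignment to GRCm39 with HISAT2 and counting with featureCounts. Versions, annotation, strand setting and treatment of reads with several matches are not given in the sources used here, so values of near-identical paralogs and overlapping genes are uncertain. Every library was assigned by its label. Of the 26264 symbols, 23897 (91.0%) were in GENCODE M39, which gave coordinates, exon lengths and promoters.

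Counts were divided by DESeq2 1.42.0 median-of-ratios size factors over the 6 libraries. Folds used a pseudocount of 1, a pair mean of 20 normalized counts or more and 2-fold as the limit. Intervals (95%, Clopper-Pearson or Poisson) cover counting error only, since each condition had 1 library, and are wide for genes with few counts. The reads have no molecular identifiers, so the counts are of reads and not of molecules. edgeR 4.0.16 (quasi-likelihood, TMM, filterByExpr, day and treatment terms, Benjamini-Hochberg over all genes tested, adjusted p under 0.05) tested effects shared across days. With 1 library per condition its p-values measure only the spread between days or arms. Both steps were run on simulated data without differences between days, so that run could not check a response that differs between days. The scripts ran in R 4.3.3 and Python 3.11.15 (with pandas 2.3.3 and scipy 1.17.1).

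The chemokine genes and all lists were chosen with earlier results of these data known. Named are the 10 genes, Ccl12, the 4 most abundant members of each list and those 2-fold lower or higher on all 3 days, and the 3 genes most like Ccl2, Cxcl1, Cxcl10 and Cxcl12. The result of 1 gene named by this rule is not reported here. Genes beside the chemokine loci, markers at or near 0, Dlk1, Pi16, Thy1 and Ifnar2 were named after their values were seen. Alternatives were TMM, total counts and within-pair size factors, pseudocounts of 0.5 and 5, a minimum mean of 100 or none, 1.5-fold and 4-fold limits, DESeq2's Wald test, DESeq2 size factors in edgeR, no filter, no day or treatment block, and leaving out each day.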

Additional observations from a re-analysis of the deposited data

Results flagged for a closer look

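The 6 genes below had log2 fold changes (FGF8 minus untreated) on opposite sides of 0 on different days, with counting intervals that did not include 0. The difference between days was not tested, as each day had 1 library per arm. Ccl2 had 0.34 at day 0, -1.91 at day 3 and -2.16 at day 9. Csf1 followed the same order with 0.52, -1.38 and -1.15, and so did Sdc2, a heparan sulfate proteoglycan that binds chemokines, with 0.82, -1.43 and -0.83. The matrix gene Fn1 had 0.72, -1.95 and -2.17. Il33 spanned the widest range of these 6 genes, from 6.12 at day 0 to -3.00 at day 3 and -4.47 at day 9. The opposite order was seen for Lpl, the lipoprotein lipase of adipocytes, with -2.03, 0.47 and 0.20.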

How the results depend on the processing

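Of 300 alternative values for single chemokine genes, 297 kept the direction and 3 changed sign. Of these, 1 was Ccl11 at day 0, which lay near 0 under every scaling and pseudocount (-0.05 to 0.04), and 2 were between day 3 and day 0 without the treatment block, where the log2 change was 0.04 for Ccl11 (-0.61 with the block) and -0.44 for Cxcl5 (0.38 with it), and neither gene passed in edgeR with the block. With the 1.5-fold limit, 7 genes were lower at day 0 and all 10 at day 3 and at day 9, so the 3 patterns were not kept. With the 4-fold limit, 3 genes were lower at day 0 and 5 at day 3. The count of genes lower in the shared FGF8 effect was 5 with no filter, 0 without the day block (6 at an unadjusted p under 0.05), 9 with DESeq2's Wald test, 2 with DESeq2 size factors in edgeR (where Cxcl12 had an adjusted p of 0.0561) and 0 to 10 when 1 day was left out. Without the treatment block, 0 were lower and 0 higher between days 3 and 0 (0 and 0 also unadjusted), and 2 lower and 0 higher between days 9 and 0. Low counts limit Ccl8, Cxcl5 and Cxcl1 in FGF8-pretreated cells, which held 9 to 122, 12 to 69 and 15 to 104 counts.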
